A study of Mus musculus with 6 samples.

Results

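The MEF2 transcription factors and other regulators of mature muscle (Mef2a, Mef2c, Mef2d, Tead1, Eya1, Myf6 and Myod1) were read probe by probe on Illumina bead arrays of tibialis anterior, a fast muscle of the lower leg. All probes to which the platform annotation gives one of these symbols were taken, which gave 15 of 45281 probes. They cover 6 of the 7 genes (of 19057 genes with a probe in all), since no probe in the annotation used here carries the symbol Mef2a (chr7:67231163-67376456, GRCm38.p6 as for all positions below). The genes were selected on the signal intensities themselves, because Mef2c and Tead1 had been seen to vary strongly between arrays of both genotypes, so that variation is described and not tested. The arrays carried RNA from 3 Neb SH3-deleted animals (Neb 1 to Neb 3) and 3 wild type animals (WT 1 to WT 3). All were males of 8 weeks with mixed Sv129/Black Swiss ancestry. The SH3 domain removed in the first group lies at the Z-disc end of nebulin, the giant protein of the thin filament. The submitters call the samples biological triplicates.

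MEF2 proteins are MADS-box factors that bind AT-rich sites in the promoters of contractile and metabolic genes and act together with the myogenic bHLH factors. TEAD1 binds M-CAT elements with partners such as the VGLL and YAP proteins, and EYA1 is a transcriptional coactivator and phosphatase. Myf6 (MRF4) is the myogenic bHLH gene known to be most strongly expressed in adult fibres, while Myod1 is known from satellite cells, their myoblast progeny and fast fibres.

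Each array reported an average signal intensity per probe and a detection p-value, which ranks the probe against negative control probes of the same array. A detection p under 0.05 is called above background here. The arrays were dim, with 4000 to 4667 probes above background in Neb SH3-deleted and 4506 to 5844 in wild type muscle, beside the 2264 that this threshold would pass by chance. Probes above background on at least 3 of 6 arrays were tested (3422), and their level is a normalized log2 intensity, which is not comparable between probes. On the first principal component of these probes (32.6% of the variance) Neb 1 (-12.4) and WT 2 (-10.7) lay apart from the other arrays (5.09 to 6.64). The single Neb probe was above background on 0 of 6 arrays and does not check the genotype. All 11 probes of 7 fibre marker genes, among them Ckm, Acta1 and Myh4, were above background on all 6 arrays and were tested. The median genotype difference of these probes was -0.03, above 0 for 4 and below 0 for 7 (1 and 10 with median scaling).

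Mef2c had 5 probes and the widest variation of the group, so the sequences before its annotated starts are shown. Mef2c lies at chr13:83504017-83667079 (GRCm38.p6), and RefSeq lists 18 curated transcripts for it and 3 separate starts in the promoter table used here. The 250 bases before each listed start are given 5′ to 3′ on the plus strand from RefSeq (GRCm38.p6). The window of start 1 ends at 83504033, inside the gene interval above. Distances below therefore count from the listed starts and not from the first base of the gene. Capitals mark E-boxes (CANNTG, the motif of myogenic bHLH factors) and the M-CAT core of TEAD factors (CATTCC or its reverse complement GGAATG), and both strands were searched.
Mef2c start 1, chr13:83503784-83504033: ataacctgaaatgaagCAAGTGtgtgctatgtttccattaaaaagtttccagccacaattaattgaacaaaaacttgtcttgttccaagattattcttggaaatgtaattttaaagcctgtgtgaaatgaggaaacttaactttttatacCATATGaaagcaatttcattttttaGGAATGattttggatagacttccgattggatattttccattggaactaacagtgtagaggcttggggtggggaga
Mef2c start 2, chr13:83523406-83523655: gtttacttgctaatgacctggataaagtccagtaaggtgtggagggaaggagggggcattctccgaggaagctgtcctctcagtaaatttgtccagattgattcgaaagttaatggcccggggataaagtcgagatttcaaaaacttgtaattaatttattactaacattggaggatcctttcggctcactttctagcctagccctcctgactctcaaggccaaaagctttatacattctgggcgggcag
Mef2c start 3, chr13:83573357-83573606: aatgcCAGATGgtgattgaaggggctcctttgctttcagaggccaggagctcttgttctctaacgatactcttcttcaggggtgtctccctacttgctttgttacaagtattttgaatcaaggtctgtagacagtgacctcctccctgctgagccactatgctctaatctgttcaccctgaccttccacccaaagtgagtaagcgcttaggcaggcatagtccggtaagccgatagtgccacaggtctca
The window of start 1 holds 2 E-boxes, whose first bases lie 234 and 100 bases before the start, and 1 M-CAT core at 75 bases. The window of start 3 holds 1 E-box at 245 bases, and that of start 2 holds neither motif. The MEF2 consensus was found in 0 of these windows, which says only that those letters are not in them. Of all 32851 promoter windows of this length, 66.2% hold an E-box, 12.6% an M-CAT core and 2.92% the MEF2 consensus. These matches are descriptions of the sequence and show no binding.

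The Mef2c probe ILMN_1214950, which RefSeq transcript NM_025282 annotates, split the arrays within each genotype. Its signal was 131, 868 and 373 in Neb 1, Neb 2 and Neb 3, against 727, 170 and 684 in WT 1, WT 2 and WT 3. One array of each genotype was low, the 2 that lay apart on the first principal component, and the groups overlapped over nearly their whole range. It was above background on all 6 arrays, with a detection p of 0 on each. The normalized levels were 6.20, 9.39 and 8.65 in Neb SH3-deleted and 8.93, 6.59 and 9.24 in wild type muscle (log2 intensity), a range of 3.19 or 9.12-fold from the lowest array to the highest. Among the 3422 tested probes its between-array SD (1.40) ranked 2, where the median was 0.22 and the largest 1.50. Its weight on the first principal component ranked 2. That component was computed from these same levels without scaling, this probe included, so the weight restates the wide variation. Without those 2 arrays, the lowest for this probe, its range was by necessity smaller (0.75). In the authors' deposited processed values the range over all 6 arrays was 2.42 on a log2 scale, from 6.84 to 9.26.

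A second Mef2c probe annotated by the same transcript, ILMN_2732465, did not follow that pattern. Its signal was 106, 132 and 144 in Neb SH3-deleted and 170, 139 and 128 in wild type muscle, above background on all 6 arrays. Neb 1 was again the lowest array, but WT 2 was in the middle, and Neb 2, the highest array for the first probe, was below it. The normalized levels were 5.34, 5.76 and 6.39 in Neb SH3-deleted and 6.32, 6.04 and 5.93 in wild type muscle, so that Neb 2 was the second lowest array on this scale. That is a range of 1.05, or 2.07-fold, and the between-array SD of 0.39 ranked 322 of the tested probes. Among the 4 arrays other than Neb 1 and WT 2, the array highest for the first probe (Neb 2) had the lowest normalized level for this one. Pearson's r between the normalized levels of both probes was 0.48 over the 6 arrays and -0.96 over these 4, as a description over few points.

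The other Mef2c probes were at or near background. ILMN_2887992 had signals of 86.8, 92.8 and 90.2 in Neb SH3-deleted and 98.4, 88.8 and 101 in wild type muscle. It was above background on 1 Neb SH3-deleted array (Neb 2) and on 3 wild type arrays, where Neb 1 and Neb 3 were also the arrays with the fewest probes above background (4000 and 4041), and the part of this in the probe's readings was not tested. Its normalized levels were 4.24, 4.51 and 4.23 in Neb SH3-deleted and 4.66, 4.40 and 4.998 in wild type muscle. They went partly with the first probe, lowest in wild type on WT 2 and highest in Neb SH3-deleted on Neb 2, with an r of 0.59 over the 6 arrays and 0.58 without Neb 1 and WT 2. Its between-array SD was 0.29, where the upper quartile of all tested probes was also 0.29. ILMN_1220270, annotated by the mRNA accession AK047994, was above background only in WT 3, with signals of 84.3 to 85.3 in Neb SH3-deleted and 84.5 to 90.2 in wild type muscle. ILMN_2520812 was above background on 0 arrays, with signals of 85.5 to 90.8 in Neb SH3-deleted and 80.4 to 85.0 in wild type muscle. The 5 probes of this gene therefore gave different readings of the same RNA samples, and where each lies in the transcript is not given in the sources used here.

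**Figure D1:**
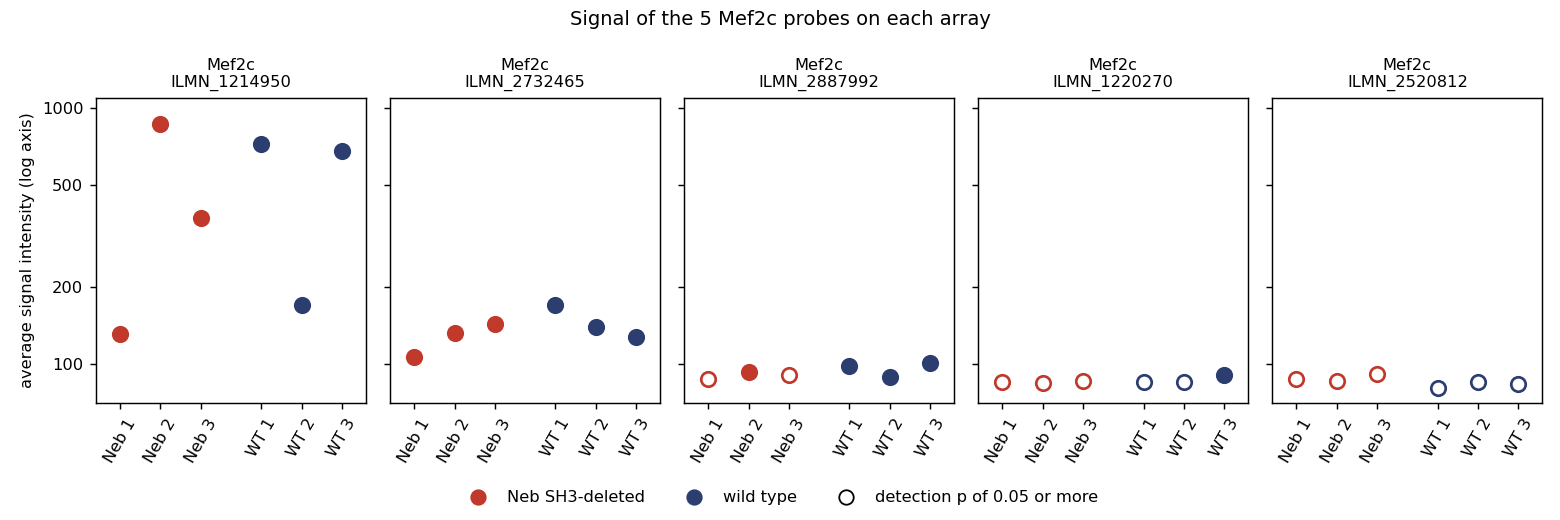
Average signal intensity (log axis) of the 5 Mef2c probes on each array, Neb SH3-deleted replicates at the left and wild type replicates at the right of each panel, with open circles where the detection p was 0.05 or more. The first probe runs from 131 to 868 with 1 low array in each genotype, while the second stays between 106 and 170 and the last 3 lie near background.

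Mef2d, a broadly expressed family member at chr3:88141941-88172091, had 1 probe (ILMN_2714918). Its signal was 95.7, 79.6 and 96.2 in Neb SH3-deleted and 87.5, 81.6 and 90.5 in wild type muscle. It was above background on 2 Neb SH3-deleted arrays and 1 wild type array, the minimum for a test, and the lowest arrays were Neb 2 and WT 2. Normalized levels were 4.78, 4.12 and 4.50 in Neb SH3-deleted and 4.22, 4.16 and 4.46 in wild type muscle, with a between-array SD of 0.25. Mef2b, the remaining family member, had 3 probes, of which 2 were above background on 0 arrays and 1 on 1 array.

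Tead1 (chr7:112679356-112906784) had 3 probes, and the most variable of them followed the first Mef2c probe from array to array. ILMN_1218956, annotated by AK045406, had signals of 86.7, 152 and 104 in Neb SH3-deleted and 131, 95.2 and 107 in wild type muscle. It was above background on all arrays except Neb 1 (detection p 0.326). The order of the normalized levels was Neb 2 (6.15), WT 1 (5.66), WT 3 (5.28), Neb 3 (5.11), WT 2 (4.74) and Neb 1 (4.23). This is the order of Mef2c ILMN_1214950 with WT 1 and WT 3 exchanged. The range was 1.92, or 3.78-fold, and the between-array SD of 0.68 ranked 25. Without Neb 1 and WT 2, the lowest arrays for this probe, its range was 1.04. By r over 6 arrays this probe ranked 85 of 3421 among the tested probes in likeness to Mef2c ILMN_1214950, so many tested probes ranked above it.

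The second Tead1 probe, ILMN_1252402, varied less. Signals were 98.4, 112 and 96.7 in Neb SH3-deleted and 122, 99.7 and 106 in wild type muscle, above background on all 6 arrays. The normalized levels were 4.96, 5.23 and 4.53 in Neb SH3-deleted and 5.43, 4.94 and 5.22 in wild type muscle, so the lowest array was Neb 3 and not Neb 1. Its between-array SD was 0.31, which ranked 668. The third probe, ILMN_2607207, was above background on 0 arrays, with signals of 81.2 to 87.1 in Neb SH3-deleted and 85.6 to 89.9 in wild type muscle.

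Eya1 (chr1:14168953-14311035) lay at background on these arrays, apart from 1 reading. Its 4 probes had signals of 79.0 to 95.3 in Neb SH3-deleted and 80.0 to 88.1 in wild type muscle. One of them, ILMN_2444322, was above background in Neb 3 (detection p 0.047), and the other probes were not above background on any array, with detection p-values of at least 0.0652. No difference between genotypes can be given for a gene at background in both.

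Myf6 (chr10:107492848-107494723) had 1 probe (ILMN_1213941), above background on 2 Neb SH3-deleted and 3 wild type arrays. Signals were 103, 100.5 and 92.7 in Neb SH3-deleted and 122, 94.7 and 99.4 in wild type muscle. WT 1 was the highest and Neb 3 the lowest array, so the groups overlapped. The normalized levels were 5.23, 4.84 and 4.32 in Neb SH3-deleted and 5.44, 4.72 and 4.94 in wild type muscle, a range of 1.12, with a between-array SD of 0.39 (rank 294). Its highest and lowest arrays were those of Tead1 ILMN_1252402.

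Myod1 (chr7:46376474-46379092, probe ILMN_1233507) was above background only in WT 3 (detection p 0.0331). Its signals were 86.1, 80.6 and 84.7 in Neb SH3-deleted and 88.8, 82.6 and 90.4 in wild type muscle. Of its myogenic bHLH relatives, Myog and Myf5 read much the same, unlike Myf6 above. Myog was above background on 1 array with 1 of its probes and on 0 with the other, and Myf5 on 0 arrays.

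**Figure D2:**
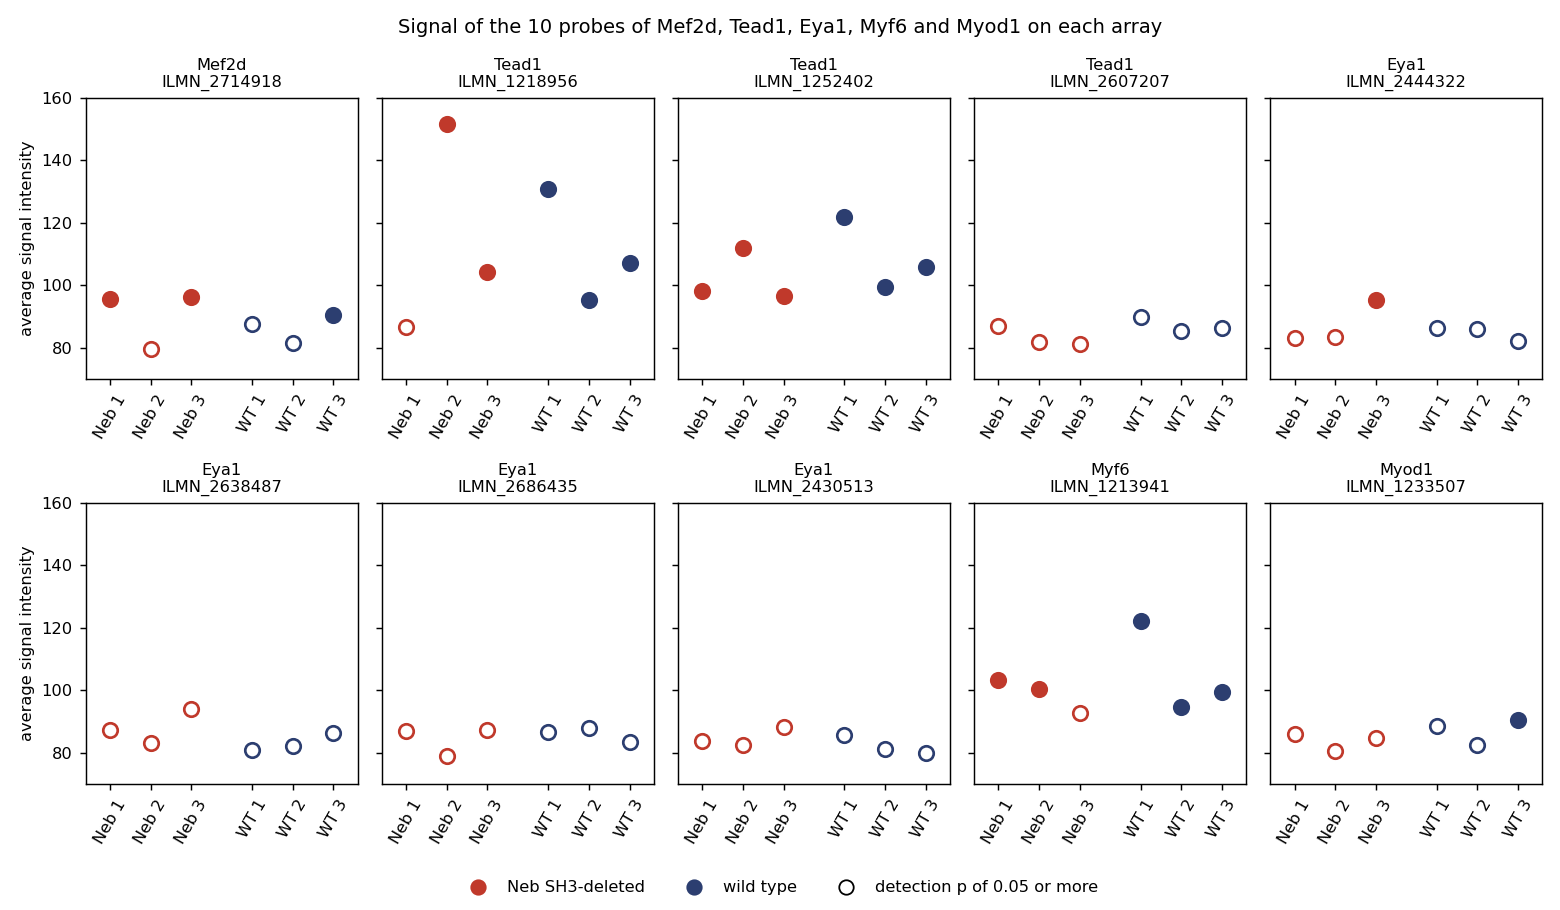
Average signal intensity of the 10 probes of Mef2d, Tead1, Eya1, Myf6 and Myod1 on each array, Neb SH3-deleted at the left and wild type at the right of each panel, with open circles where the detection p was 0.05 or more. Tead1 ILMN_1218956 reaches 152, the highest signal in these panels, and the probes of Eya1 and Myod1 and Tead1 ILMN_2607207 stay near background.

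**Figure D3:**
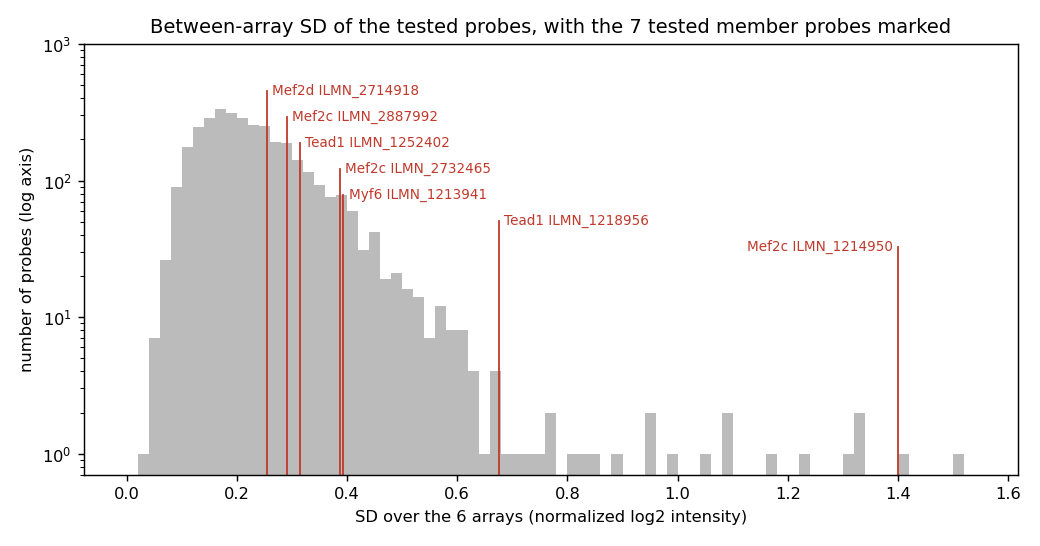
Histogram of the SD over the 6 arrays (normalized log2 intensity) of the 3422 tested probes, with a log axis for the number of probes and red lines at the 7 tested probes of these genes. Mef2c ILMN_1214950 (1.40) and Tead1 ILMN_1218956 (0.68) lie in the upper tail, and the other 5 lie between 0.25 and 0.39.

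The genotypes were compared for the 7 probes that passed the filter, which belong to 4 genes, with limma fitted over all 3422 tested probes. None of the 7 passed an adjusted p of 0.05 (Benjamini-Hochberg over all tested probes), where 0% of all tested probes did and the smallest adjusted p was 0.984. At an unadjusted p under 0.05 there were 0 of 7, beside 4.3% of all tested probes (147), 2.66% lower and 1.64% higher in Neb SH3-deleted. The groups did not overlap for 0 of 7 probes, beside 9.06% of all tested probes. The fitted difference was below 0 for 6 probes and above 0 for 1, where it was below 0 for 56.1% of all tested probes, and it was below 0 for 5 and above 0 for 2 in the deposited values, with cyclic loess, with an offset of 50 and without background correction. With median scaling 6 were below 0 and 1 above, while the median of all tested probes was -0.09 (-0.03 as reported) with 2386 below 0 and 1036 above. In whole muscle, fewer cells of a type and less RNA per cell cannot be told apart.

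Mef2c ILMN_1214950 averaged 8.08 ± 1.67 in Neb SH3-deleted and 8.26 ± 1.45 in wild type muscle (SD, n = 3 each). The log2 difference was -0.17 (95% interval -1.94 to 1.59, adjusted p 0.991 by limma), so the interval runs from 0.261-fold to 3.01-fold and this probe bounds the effect of genotype only loosely. Leaving out Neb 1 gave 0.76, leaving out WT 2 gave -1.01, and leaving out both gave -0.07. Leaving out WT 1 or WT 3 also turned the sign (0.16 and 0.32), so the sign rested on single arrays. ILMN_2732465, which did not follow the first probe over the arrays, had a narrower interval that does not bound what the first probe read. It averaged 5.83 ± 0.53 in Neb SH3-deleted and 6.10 ± 0.20 in wild type muscle (SD, n = 3 each), a log2 difference of -0.27 (-0.81 to 0.28, adjusted p 0.984 by limma), which was -0.02 without Neb 1 and -0.55 without Neb 3. The dim ILMN_2887992 averaged 4.33 ± 0.16 and 4.69 ± 0.30 in Neb SH3-deleted and wild type muscle (SD, n = 3 each), and its difference of -0.36 (-0.77 to 0.05) had the smallest unadjusted p of the 7 (0.0808 by limma, adjusted p 0.984). It was -0.20 without WT 3 and -0.50 without WT 2.

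Tead1 ILMN_1218956 averaged 5.17 ± 0.96 in Neb SH3-deleted and 5.23 ± 0.46 in wild type muscle (SD, n = 3 each). The difference was -0.06 (-0.96 to 0.83, adjusted p 0.991 by limma), 0.40 without Neb 1, -0.56 without Neb 2 and 0.16 without both arrays that lay apart. ILMN_1252402 averaged 4.91 ± 0.35 in Neb SH3-deleted and 5.20 ± 0.24 in wild type muscle (SD, n = 3 each), a difference of -0.29 (-0.75 to 0.17), with -0.10 without Neb 3 and -0.45 without Neb 2. Myf6 averaged 4.79 ± 0.46 in Neb SH3-deleted and 5.04 ± 0.37 in wild type muscle (SD, n = 3 each), a difference of -0.24 (-0.80 to 0.32, adjusted p 0.984 by limma). Without Neb 1 and WT 2 it was -0.61 (unadjusted p 0.0254, adjusted p 0.944 by limma), and without Neb 3 it was -0.0033. Mef2d averaged 4.47 ± 0.33 in Neb SH3-deleted and 4.28 ± 0.16 in wild type muscle (SD, n = 3 each). Its difference was 0.18 (-0.25 to 0.61, adjusted p 0.984 by limma), 0.03 without Neb 1 and 0.36 without Neb 2.

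**Figure D4:**
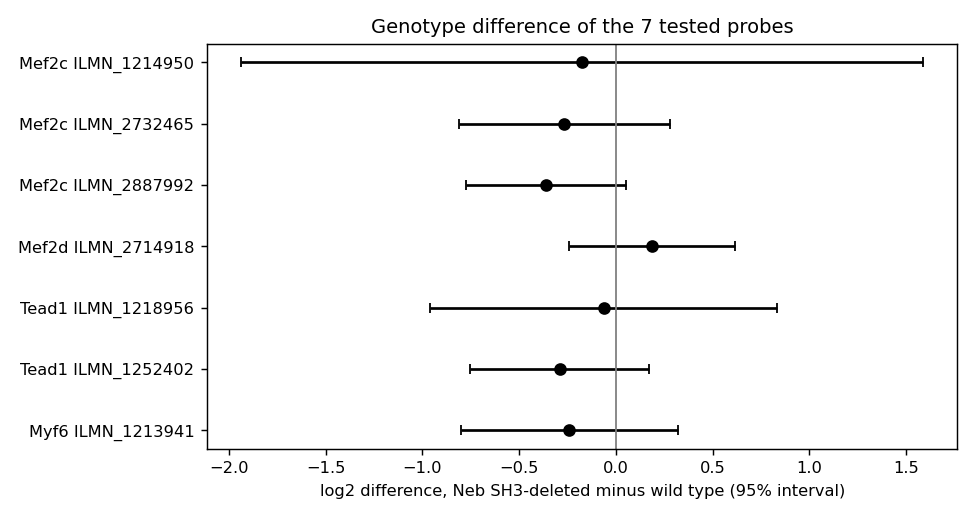
Log2 difference (Neb SH3-deleted minus wild type) of the 7 tested probes, with points for the fitted difference and bars for the 95% interval. Every interval crosses 0, and that of Mef2c ILMN_1214950 (-1.94 to 1.59) is the widest of the 7.

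For each of the 3 probes of these genes above background on all 6 arrays, the 5 most similar probes were found by Pearson's r over the 6 arrays among 2963 other tested probes with 1 symbol. A search over so many probes and so few arrays returns high values by construction, and all probes of an array share its hybridisation. For Mef2c ILMN_1214950 they were Odc1 (ornithine decarboxylase, r 0.995), Tmem63b (0.992), Pfkm (muscle phosphofructokinase, 0.991), Eef1a2 (the elongation factor 1A form of muscle and neurons, 0.982) and Pja2 (a ubiquitin ligase, 0.977). Since 2 arrays lay apart, r was also taken over the other 4, where it ranged from 0.82 for Eef1a2 to 0.97 for Tmem63b. Over all other tested probes the median on these 4 arrays was 0.13. The 4 arrays were part of the search, so their values are no independent check of it. Pfkm ILMN_1252214 was at 4.48, 8.17 and 6.92 in Neb SH3-deleted and 7.58, 5.04 and 7.49 in wild type muscle, low on the same array of each genotype, with a range of 3.69. The other Pfkm probes, ILMN_3004553 and ILMN_2628892, had an r of -0.23 and 0.35 with the Mef2c probe and ranges of 0.93 and 0.58. Of Eef1a2, the other probes had an r of -0.38 and -0.25, and the second probe of Pja2 had an r of 0.74. Odc1 and Tmem63b had no other tested probe.

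**Figure D5:**
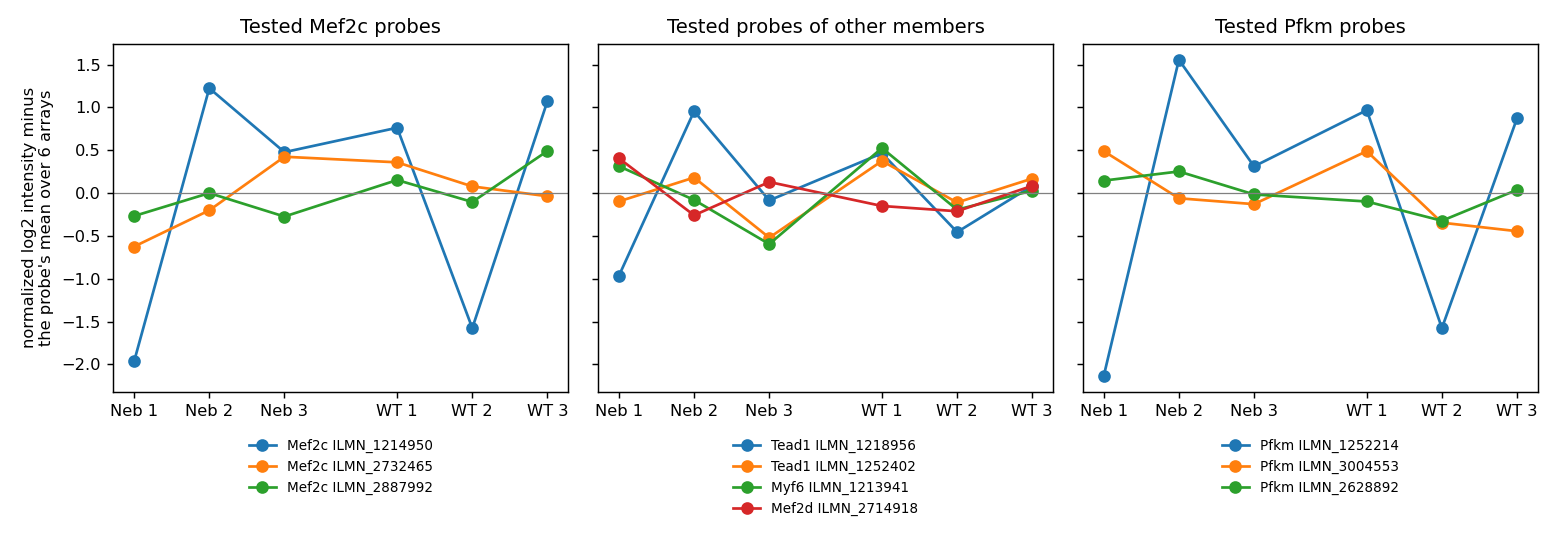
Normalized log2 intensity minus the probe's mean over the 6 arrays, by array, for the tested Mef2c probes, the tested probes of Tead1, Myf6 and Mef2d, and the tested Pfkm probes. Lines join the values of 1 probe and imply no order of arrays. The probes Mef2c ILMN_1214950 and Pfkm ILMN_1252214 dip on Neb 1 and WT 2, and the other probes shown for both genes vary less, with ranges of 0.58 to 1.05.

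Other probes gave other neighbours. For Mef2c ILMN_2732465 the 5 most alike were Slc43a1 (an amino acid transporter, r 0.986), Fbxo44 (0.973), Styx (0.961), Gadd45g (a stress response gene, 0.961) and Mxd4 (0.954), while a second Gadd45g probe had an r of -0.59. For Tead1 ILMN_1252402 they were Ttc1 (0.988), Cdc42 (a small GTPase, 0.985), Vps26a (a retromer subunit, 0.979), Bfar (0.976) and Hat1 (a histone acetyltransferase, 0.976).

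Co-regulators and signals upstream of MEF2 were read from a list of 29 genes, 11 of them with a tested probe. Of 12 tested probes 0 were called, and the difference was above 0 for 4 and below 0 for 8 (median -0.19, against -0.03 over all tested probes). The brightest were the calcineurin subunit genes Ppp3cb, -0.36 (95% interval -0.77 to 0.05), and Ppp3r1, 0.33 (-0.55 to 1.20), then Mapk14, the p38 kinase that phosphorylates MEF2 proteins, -0.21 (-0.55 to 0.13), and Abra, an activator of SRF signalling in striated muscle, -0.39 (-0.82 to 0.03). Among the class II deacetylases that bind MEF2, Hdac5 was tested with 1 probe, above background on 4 arrays (-0.26, -0.66 to 0.14). Its other probes, ILMN_1213290 and ILMN_3112922, were above background on 0 arrays. The probes of Hdac4, Hdac7 and Hdac9 were above background on at most 1 array each. Of the TEAD partners and relatives, 2 of 17 genes were tested, and 0 of their 3 probes were called. Vgll2, a muscle cofactor of TEAD proteins, gave 0.14 and -0.15 with its 2 tested probes, and Ccn2, a target of YAP and TEAD, gave 0.17 (above 0 for 2 of the 3 probes, and for 1 with median scaling). The probes of Tead2, Tead3 and Tead4 were above background on at most 1 array each.

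Of the bHLH partners 2 of 16 were tested and 0 called, Cdkn1c, a cell cycle inhibitor, at 0.45 (-0.06 to 0.95) and Tcf4, an E protein, at -0.12 (-0.60 to 0.36). Other transcription factors and cofactors of fibres had 6 of 24 genes tested, and of 11 probes 0 were called, with 4 differences above 0 and 7 below (median -0.16). The brightest were Csrp3, the muscle LIM protein (0.20, and -0.26 with its second probe), and Nfix, a factor of the fetal and adult muscle programme (-0.12, and 0.15 with its second probe). Next came Lmcd1 (-0.46, -1.21 to 0.30, and -0.36 and -0.16 with its other tested probes) and Tbx1 (0.12). All 11 of these probes, which come from 6 genes, had a positive r with Mef2c ILMN_1214950 over the 6 arrays (median 0.61), where 51.4% of all tested probes did (median 0.02). The highest value was that of Tbx1, 0.90. Over the 4 arrays without Neb 1 and WT 2, r was positive for 6 of the 11 (median 0.06), beside 55.9% of all tested probes (median 0.13), so the count of 11 rested on those 2 arrays.

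Muscle genes with described MEF2 sites in their regulatory regions were set beside the variable Mef2c probe ILMN_1214950 over the 6 arrays. Of 13 genes 10 were tested, and of their 13 probes 6 had a positive r with it (median -0.18). Of all tested probes 51.4% did (median 0.02), so the count was near that share. Mb (myoglobin) had an r of -0.92 and -0.89 with its 2 probes and Myl2, a slow and cardiac myosin light chain, 0.83. Both Mb probes were highest, and Myl2 was lowest, on Neb 1 and WT 2, the arrays that lay apart. Among the other arrays Myl2 was lowest on Neb 2, where the Mef2c probe was highest. For this list r was not taken without Neb 1 and WT 2, so these values hold only with those arrays included. Between the genotypes 0 were called, and 7 differences were above 0 and 6 below (median 0.0022), turning to 2 and 11 with median scaling. The largest was that of Myom1 ILMN_2626442, -0.59 (-0.97 to -0.21, unadjusted p 0.0056, adjusted p 0.984 by limma). The other tested Myom1 probe was at 0.0022. The brightest were Tcap (telethonin, 0.45, -0.05 to 0.95), Des (desmin, -0.0019), Mb (0.03) and a second Tcap probe (0.25). Of the genes with M-CAT sites, Acta1 (skeletal α-actin) was at 0.38 (-0.04 to 0.80) and Tnnt3 (fast troponin T) at -0.02, both below 0 with median scaling and neither called. Rapsn, the clustering protein of acetylcholine receptors, was the 1 gene tested of 8 in the junction list (0.14).

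Markers of other cell types that also use these factors were mostly at background. Of 10 satellite cell and myoblast genes 1 was tested (Itga7, -0.28), and Pax7, Myf5, Cdh15 and Cd34 were above background on 0 arrays, so Myod1 at background stood beside satellite cell markers at background. The summed signal of that list was 1531 to 1607 in Neb SH3-deleted and 1509 to 1589 in wild type muscle. With only 1 of its 18 probes tested, this sum is mostly background and could hardly show a change in satellite cell content. Mef2c is also known from endothelium, and 3 of 12 endothelial and pericyte genes were tested, with differences of -0.40 for Rgs5, -0.28 for Egfl7 and -0.15 for Pecam1, none called, with sums of 1679 to 1796 in Neb SH3-deleted and 1691 to 1781 in wild type muscle. With 16 of its 19 probes not tested, this sum is mostly background and could hardly show a change in endothelial content. The signal of fibre markers before normalization summed to 6759 and 7737 on Neb 1 and WT 2, where Mef2c ILMN_1214950 was low. It summed to 7567 to 10878 on the others, so WT 2 lay above Neb 3 (7567). In normalized levels 4 of the 11 fibre probes had a positive r with this Mef2c probe (median -0.21), beside 51.4% of all tested probes. The part of cell content in the Mef2c and Tead1 values was not tested. Fibroblast genes had 4 of 11 tested, with 6 of 19 probes. Their signal summed to 1856 to 2064 in Neb SH3-deleted and 1717 to 1995 in wild type muscle, and much of this sum is also background. Macrophage and leukocyte genes had 2 of 11 tested, adipocyte genes 1 of 6 and nerve and Schwann cell genes 0 of 7. For the 8 tested globin probes of 3 erythrocyte genes, which are near-identical copies in part, the difference was above 0 each time (median 0.58) and 0 were called. Their median was 0.30 with median scaling and 0.31 in the deposited values.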

How the data were processed

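The authors deposited a non-normalized table of average signal intensity per probe with a detection p-value, per the file headers, and a table of processed values that behave as log2 values, from lumi per the submitters' processing notes, with no version or settings named in the sources used. RNA was extracted with Trizol and labelled with biotin, per the labels' protocols. The intensities went through limma's nec (normexp, offset 16, negative controls inferred from the detection p-values), then log2 and quantile normalization. A probe was kept where 3 or more of the 6 arrays had it above background (3422), each probe on its own. The genotype contrast was fitted by lmFit and eBayes (limma 3.58.1, R 4.3.3) without covariates, and its two-sided p-values were adjusted by Benjamini-Hochberg over every kept probe. These steps were tested on simulated data with independent noise for each probe. No simulated array lay apart from the others, so the simulation does not cover that feature of these data. Alternatives for background, normalization, filter and left-out arrays are given in the closing section. The annotation gives 1 symbol to 34885 probes, several to 18 and none to 10378. The number of arrays limits the precision. Members, lists and alternatives were chosen with earlier results of these data known. Named genes were every probe of the members, the 5 probes most like each member above background on all arrays, and up to 4 tested probes per list by mean level. Some of the gene lists are not reported here. Further probes of Pfkm, Eef1a2, Pja2, Gadd45g and Lmcd1 and the second Mb, Csrp3 and Nfix probes were named after their values were seen. So were Hdac5, Myl2, Myom1 and the untested genes.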

Additional observations from a re-analysis of the deposited data

How the results depend on the processing

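The number of probes past an adjusted p of 0.05 was 0 in 19 of 19 alternatives, for all tested probes and for the probes of these genes (limma), and at an unadjusted p under 0.05 it ran from 36 (a detection p under 0.01 on all 6 arrays, 1141 probes tested) to 1895 (no filter, 45281 tested), beside 147 as reported. Differences turned sign for 3 probes, none of them called. Tead1 ILMN_1218956 was at 0.00094 without background correction, 0.0072 with an offset of 50, 0.040 with cyclic loess, 0.00099 in the deposited values and 0.16 without WT 2 and Neb 1, and between -0.56 and 0.40 with each array left out. Mef2c ILMN_1214950 was between -1.01 and 0.76 with each array left out. Mef2d was at -0.032 without WT 2 and Neb 1. The cause of these turns was not tested. The other 4 probes kept their direction in every alternative that gave a value. With the replicate block, 0 probes were called and the differences were the same, with adjusted p-values of 0.992 for all 7. Same-numbered arrays had correlations of -0.22, -0.18 and 0.09 between their deviations from the group means, and the highest value (0.32) joined Neb 1 and WT 2. With so few arrays, and with Neb 1 and WT 2 lying apart, these values cannot show whether same-numbered arrays were paired. The between-array range of dim probes depended on the background step, with Tead1 ILMN_1218956 at 0.71 without it and 1.92 with it, while Mef2c ILMN_1214950 moved less (2.42 in the deposited values, 3.19 here). No fit by slide was made, since neither labels nor headers name one.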
